A study of Mus musculus with 6 samples.

Results

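Receptor tyrosine kinases are transmembrane proteins that bind a ligand outside the cell and phosphorylate tyrosines inside it. The phosphotyrosines recruit adaptors that feed the RAS-MAPK and PI3K pathways, and feedback genes induced by the same pathways damp the signal. In the lung, epithelial cells, fibroblasts, endothelial cells and leukocytes carry different sets of these receptors, and neuroendocrine tumours such as small cell lung cancer are known for RET, KIT and FGF receptor expression.

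The 34 receptor genes described here were taken as a named list. It held the ERBB, FGF, KIT/PDGF/VEGF, MET, RET/ALK/ROS, NTRK, TAM, insulin, DDR and ROR/RYK/MUSK groups with the atypical kinases Ptk7 and Styk1. The Eph receptors, Csf1r, Igf1r, Tek, Tie1, Kdr and Flt1 were left out by that choice. All 34 were measured, out of 18193 genes, by 88 probe sets that are annotated to 1 gene symbol each. Where a gene had several probe sets the brightest over the 6 arrays was used, and 12 of the 34 have a single probe set.

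The samples were tumour-propagating cells (TPCs) and non-TPCs sorted from primary small cell lung tumours of 3 mice, numbered 1127, 920 and 0107, with 1 array per fraction and mouse. Every animal, in both fractions, belonged to a triple knockout model of Rb, p53 and p130 on a mixed C57BL/6;129Sv/J background. Tumours were collected 6 to 7 months after infection with an adenovirus that delivers Cre recombinase, with no drug treatment. Cells were stained for CD24, CD44 and EpCAM before sorting. The sources used here do not give the gates, the promoter that drives Cre, or the share of tumour cells in a fraction. Both fractions of a mouse come from 1 animal, so 3 animals limit the precision. Differences are TPC minus non-TPC of RMA signals on a log2 scale, and a list of 3 values runs in the order of mice 1127, 920 and 0107. In sorted bulk RNA, fewer cells of a type and less RNA per cell cannot be told apart.

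Of 14 measured neuroendocrine markers, 13 had a mean signal over the 6 arrays above the median of all genes, 6.91. That cut is passed by 50.0% of all genes and by all 8 alveolar type 2 markers, so it does not set the identity of a fraction. The mean of the 14 neuroendocrine markers was 10.62, 10.36 and 10.43 in TPCs and 10.44, 10.29 and 10.03 in non-TPCs. In the non-TPCs of mouse 920 the alveolar type 2 mean was 10.39 and the club and ciliated mean 10.35. Markers of other lung cells were lower in TPCs of every mouse for fibroblasts, pericytes, mesothelium, endothelium, lymphatic endothelium, macrophages, alveolar type 2 and type 1 cells, and club or ciliated cells, each as the mean of its list. Of these lists the one for alveolar type 2 cells had 2 members past the limma test at an adjusted p under 0.05, Sftpa1 and Sftpc, and the others had 0. The Sftpa1 signal was 6.68, 6.54 and 6.29 in TPCs and 9.76, 10.04 and 9.94 in non-TPCs (limma adjusted p = 0.00374).

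Signal above the median of all genes was found for 14 of the 34 receptors (41.2%, against 50.0% of all genes), namely Egfr, Erbb3, Fgfr2, Kit, Ret, Ltk, Ntrk2, Insr, Insrr, Ddr1, Ddr2, Ror2, Ryk and Styk1. Of these 14, 9 were above the median in all 6 arrays, 17 receptors were below it in all 6, and 8 crossed it. The value table has no detection calls, and probe sets differ in affinity, so this order describes probe sets and is not a ranking of transcripts. Against the 95th percentile of 33 genes restricted to other tissues, 7.57, 9 receptors had a higher mean and 6 were higher in all 6 arrays. Met, with a mean of 6.90, and Ror2, with a mean of 6.92, lie next to the median on either side.

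**Figure D1:**
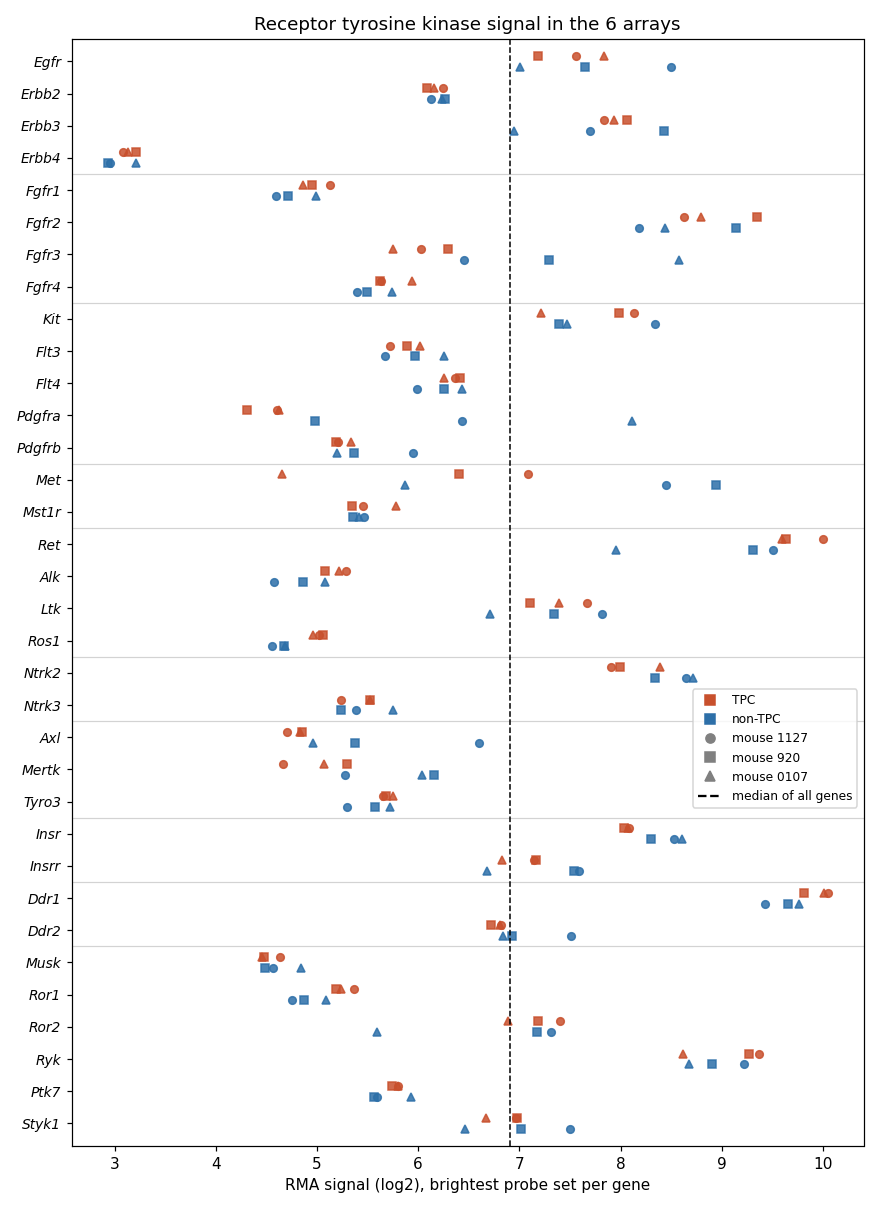
RMA signal (log2, x axis) of the brightest probe set of each of the 34 receptor genes, in the groups of the list. TPC arrays are in orange above non-TPC arrays in blue, with a marker shape per mouse. Ddr1, Ret, Ryk and Fgfr2 lie right of the dashed median of all genes (6.91) in all 6 arrays, and all non-TPC points of Fgfr3 and Pdgfra lie to the right of the TPC points. For Met this holds within each mouse but not across mice.

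No receptor passed the limma test over all 18193 genes at an adjusted p under 0.05. The count was 0 of 34 lower in TPCs, against 0.0605% of all genes (11 genes), and 0 of 34 higher, against 0.00% of all genes. At an unadjusted p under 0.05, limma gave 5 receptors lower in TPCs (14.7%, against 4.35% of all genes), Fgfr3, Pdgfra, Ntrk2, Mertk and Insr. It gave 2 higher (5.88%, against 2.12%), Ros1 and Ror1. Both directions together made 7 of 34 (20.6%, against 6.48%). That count changed with single samples, with 1 left without mouse 920 or without the TPC array of mouse 1127, 2 without mouse 1127 or without either of the other TPC arrays, and up to 10 when the non-TPCs of mouse 0107 were left out. The share of all genes without a mouse or array is not given here, so these changes may not be particular to the receptors. A replicate block for the mouse also gave an adjusted count of 0, against 13 genes lower in TPCs among all (0.0715%). In that fit 6 receptors were lower at an unadjusted p under 0.05 (17.6%, against 6.23%), now with Met, and 2 were higher (5.88%, against 3.62%), Ret and Ros1, together 8 (23.5%, against 9.85%). A random block for the mouse gave an adjusted count of 0 as well, against 39 genes lower among all (0.214%).

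The median difference over the 34 receptors was 0.06, beside 0.04 over all genes, and it was 0.06, -0.01 and -0.04 in the 3 mice. Without 1 mouse or array it ran from -0.017 to 0.061, at -0.017 when the non-TPCs of mouse 0107 were left out. Spread around that median was uneven. A difference of -1 or below was found for 3 receptors, Pdgfra, Met and Fgfr3 (8.82%, against 2.74% of all genes), and one of 1 or above for 0 (against 0.220% of all genes). By mouse, 8 receptors were lower in TPCs of all 3 mice (23.5%, against 13.8%) and 9 were higher in all 3 (26.5%, against 19.7%).

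**Figure D2:**
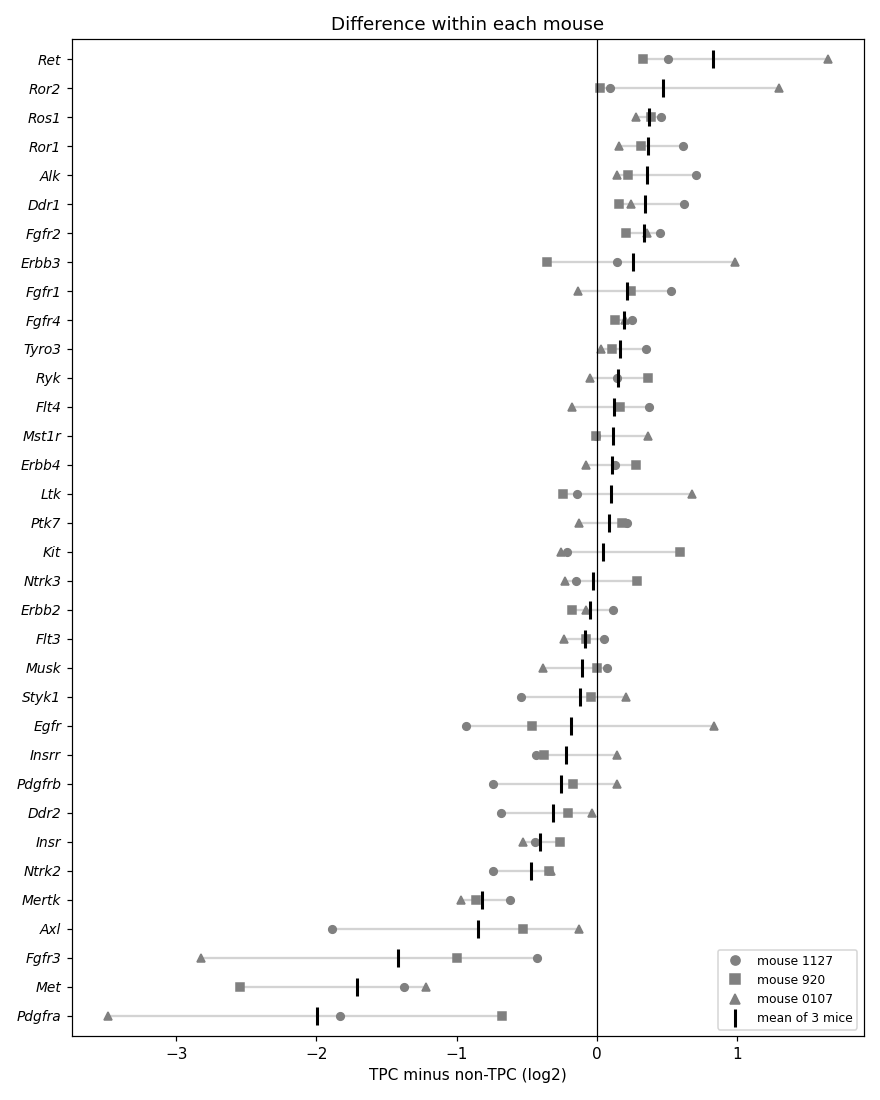
TPC minus non-TPC difference (log2, x axis) of each receptor in each mouse (grey shapes, joined by a line) with the mean of the 3 mice as a black bar, sorted by the mean. Ret has the highest mean (0.82) and Pdgfra the lowest (-1.998), and the 3 mice lie close together for Mertk but far apart for Pdgfra, Fgfr3, Axl and Egfr.

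Pdgfra, the alpha receptor for platelet-derived growth factors and a marker of fibroblasts, had the lowest mean difference of the list. Its signal was 4.60, 4.31 and 4.63 in TPCs, against 6.43, 4.98 and 8.11 in non-TPCs. The TPC arrays were uniformly dim, the non-TPC arrays were widely spread with mouse 0107 on top, and the fractions did not overlap. The difference was -1.998 (SE 0.72, limma adjusted p = 0.684, unadjusted 0.0283), a fold of 3.99 of non-TPC over TPC. A second Pdgfra probe set read 3.98, 4.22 and 4.71 in TPCs, against 7.89, 5.56 and 6.34 in non-TPCs. It put mouse 1127 rather than 0107 on top in the non-TPCs, with a difference of -2.29, and another, dim probe set differed by -0.11.

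Pdgfrb, the beta receptor found on pericytes and fibroblasts, differed by -0.26 on its brightest probe set (limma adjusted p = 0.899). Its other probe set read 4.11, 3.26 and 4.37 in TPCs, against 8.34, 4.32 and 4.88 in non-TPCs. Only the non-TPC array of mouse 1127 was bright on it, and the difference was -1.93 (limma over all probe sets, adjusted p = 0.913). The 13 fibroblast markers averaged 5.68, 5.53 and 5.71 in TPCs and 8.72, 6.80 and 6.22 in non-TPCs, and 8 of the 13 were lower in TPCs of all 3 mice. Among them Col3a1, with the most negative difference of the list (-4.79), was at 3.98, 3.94 and 3.69 in TPCs and 11.85, 9.01 and 5.12 in non-TPCs. The median difference of the 13 was -1.21 and the highest 0.18. The 11 pericyte and smooth muscle markers averaged 5.52, 5.48 and 5.50 in TPCs, against 6.52, 5.82 and 5.83 in non-TPCs. Of these 11, 5 were lower in TPCs of all 3 mice and 1 was higher in all 3, with a median difference of -0.11. The most negative differences of the list, chosen after the values were seen, were those of Rgs5 (-3.36) and Acta2 (-1.45). The part of these cells in the values of Pdgfra and Pdgfrb was not tested.

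Met, the receptor of hepatocyte growth factor, was at 7.08, 6.40 and 4.65 in TPCs, against 8.45, 8.94 and 5.87 in non-TPCs. It was lower in the TPC array of each mouse, by -1.37, -2.54 and -1.22, while mouse 0107 was the lowest in both fractions, so the fractions overlapped. The mean difference was -1.71 (SE 0.94, limma adjusted p = 0.861), a fold of 3.27 of non-TPC over TPC. Blocked by mouse (replicate block), its SE was 0.29 (limma adjusted p = 0.179). Met had the smallest p of the list for a difference among mice in a fit of fraction and mouse (limma F, unadjusted p = 0.00126, adjusted p = 0.244). A second, dim Met probe set, with a mean of 4.74, differed by 0.21. Mst1r, the receptor of macrophage-stimulating protein and the other member of the family, differed by 0.11 and was dim in all arrays.

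The alveolar type 1 markers averaged 6.33, 6.50 and 6.34 in TPCs, against 7.57, 8.08 and 7.49 in non-TPCs. Those of club and ciliated cells averaged 8.62, 8.87 and 8.26 in TPCs, against 10.11, 10.35 and 9.06 in non-TPCs. Alveolar type 2 markers averaged 8.24, 8.40 and 8.02 in TPCs, against 9.83, 10.39 and 9.46 in non-TPCs. Like Met, these 3 lists and the macrophage and leukocyte markers given with Mertk were highest in the non-TPCs of mouse 920 and lowest among non-TPCs in mouse 0107. Their part in the Met values was not tested.

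Fgfr3, a receptor for fibroblast growth factors, was at 6.03, 6.29 and 5.76 in TPCs, against 6.46, 7.29 and 8.58 in non-TPCs. The fractions did not overlap, and the non-TPC array of mouse 0107 stood highest. The difference was -1.42 (SE 0.51, limma adjusted p = 0.683), and without that array it was -0.85. A second Fgfr3 probe set, dim in all arrays, differed by 0.10. Endothelial markers averaged 5.88, 5.76 and 5.79 in TPCs, against 6.85, 5.93 and 7.64 in non-TPCs, and 4 lymphatic endothelial markers 5.37, 5.60 and 5.55, against 6.24, 5.90 and 7.79. Within these lists Lyve1, the most negative of the 4 lymphatic markers (-2.73), was at 3.80, 3.67 and 3.66 in TPCs and 6.35, 4.996 and 7.98 in non-TPCs. The median difference of those 4 was -1.12 and the highest 0.43. Both lists were highest in the same non-TPC array as Fgfr3 and the brightest Pdgfra probe set, and their part in these values was not tested.

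The promoters of the 3 receptors with a difference of -1 or below are shown because these genes had the most negative differences of the list, although none passed and the mouse furthest apart was 920 for Met and 0107 for the others. RefSeq promoters of 300 bases, from 250 before to 50 after a start, on build GRCm38.p6 were matched for 26 of the 34 receptors, with 32 windows. Capitals mark matches, on either strand, to the GC box GGGCGG, the E-box CAGCTG, the AP-1 motif TGANTCA and the TATA box TATAAA. In the first Fgfr3 window the E-box directly follows a GC box, and in the second a pair of GC boxes overlaps.
Met, chr6:17463707-17464006, plus strand: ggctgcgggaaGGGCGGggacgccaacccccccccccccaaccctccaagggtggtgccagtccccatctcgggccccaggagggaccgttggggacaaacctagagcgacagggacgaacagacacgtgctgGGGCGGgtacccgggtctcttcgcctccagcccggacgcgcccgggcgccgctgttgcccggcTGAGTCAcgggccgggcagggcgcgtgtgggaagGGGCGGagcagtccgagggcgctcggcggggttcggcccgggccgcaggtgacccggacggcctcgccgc
Pdgfra, chr5:75152001-75152300, plus strand: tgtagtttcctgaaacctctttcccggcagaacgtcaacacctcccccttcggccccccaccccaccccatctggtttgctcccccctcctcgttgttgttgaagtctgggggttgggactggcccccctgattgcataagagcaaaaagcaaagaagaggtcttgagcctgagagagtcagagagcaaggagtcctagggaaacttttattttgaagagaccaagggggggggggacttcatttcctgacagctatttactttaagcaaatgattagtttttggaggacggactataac
Fgfr3, first start, chr5:33721474-33721773, plus strand: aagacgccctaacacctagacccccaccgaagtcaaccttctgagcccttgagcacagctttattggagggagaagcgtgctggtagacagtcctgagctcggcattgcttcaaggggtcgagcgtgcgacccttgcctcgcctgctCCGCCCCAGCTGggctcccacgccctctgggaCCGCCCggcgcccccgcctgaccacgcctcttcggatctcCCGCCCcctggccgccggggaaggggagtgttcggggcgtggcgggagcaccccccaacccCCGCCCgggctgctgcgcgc
Fgfr3, second start, chr5:33722056-33722355, plus strand: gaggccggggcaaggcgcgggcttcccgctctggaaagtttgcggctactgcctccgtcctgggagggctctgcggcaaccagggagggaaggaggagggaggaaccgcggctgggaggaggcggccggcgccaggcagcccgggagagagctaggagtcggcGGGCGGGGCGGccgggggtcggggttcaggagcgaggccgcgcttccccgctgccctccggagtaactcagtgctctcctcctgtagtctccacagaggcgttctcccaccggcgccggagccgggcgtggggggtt
The Met window holds GC boxes 239, 117 and 20 bases upstream of the start and an AP-1 match 54 bases upstream. The first Fgfr3 window holds 4 GC boxes and 1 E-box, the second 2 GC boxes, and none of these motifs occurs in the Pdgfra window. GC boxes were found in 22 of the 32 receptor windows, against 35.7% of 32851 promoters. E-boxes were found in 7 of the 32 (16.3% of all promoters), AP-1 matches in 3 (7.8%) and TATA boxes in 2 (13.6%). The receptor windows had a median GC content of 63.15%, ranging from 39.0% to 77.7%, beside 52.7% for all promoters. A match is a run of letters and not a measured binding site, and no motif searched occurred in windows of all 3 genes.

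Of the TAM receptors, which bind phosphatidylserine through the bridging ligands Gas6 and protein S, Axl and Mertk had lower values in TPCs of all 3 mice and Tyro3 had higher ones. Axl was at 4.71, 4.85 and 4.83 in TPCs, against 6.60, 5.38 and 4.96 in non-TPCs. The fractions did not overlap, but the gap was narrow in mouse 0107 and wide in mouse 1127 (difference -0.85, SE 0.40, limma adjusted p = 0.812). Leaving out the non-TPCs of mouse 1127 gave -0.37. Mertk, the TAM receptor of macrophages that engulf dying cells, was at 4.66, 5.29 and 5.07 in TPCs, against 5.28, 6.15 and 6.04 in non-TPCs. It was lower within each mouse, by -0.62, -0.86 and -0.97, and the fractions met at the low non-TPC value of mouse 1127. Its difference was -0.82 (SE 0.28, limma adjusted p = 0.657), and its SE in the replicate block fit was 0.14 (adjusted p = 0.180). Tyro3 differed by 0.16.

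All 3 TAM receptors were below the median of all genes in every array. The macrophage and leukocyte markers averaged 6.76, 7.49 and 7.06 in TPCs, against 7.87, 8.42 and 7.67 in non-TPCs, with 11 of 13 lower in TPCs of all 3 mice. Among them Ptprc, which encodes the pan-leukocyte phosphatase CD45, was at 6.17, 7.44 and 5.94 in TPCs and 9.16, 8.70 and 7.91 in non-TPCs. The mesothelial markers averaged 5.34, 5.35 and 5.39 in TPCs and 6.20, 6.11 and 5.50 in non-TPCs. Their part in the Axl and Mertk values was not tested.

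**Figure D3:**
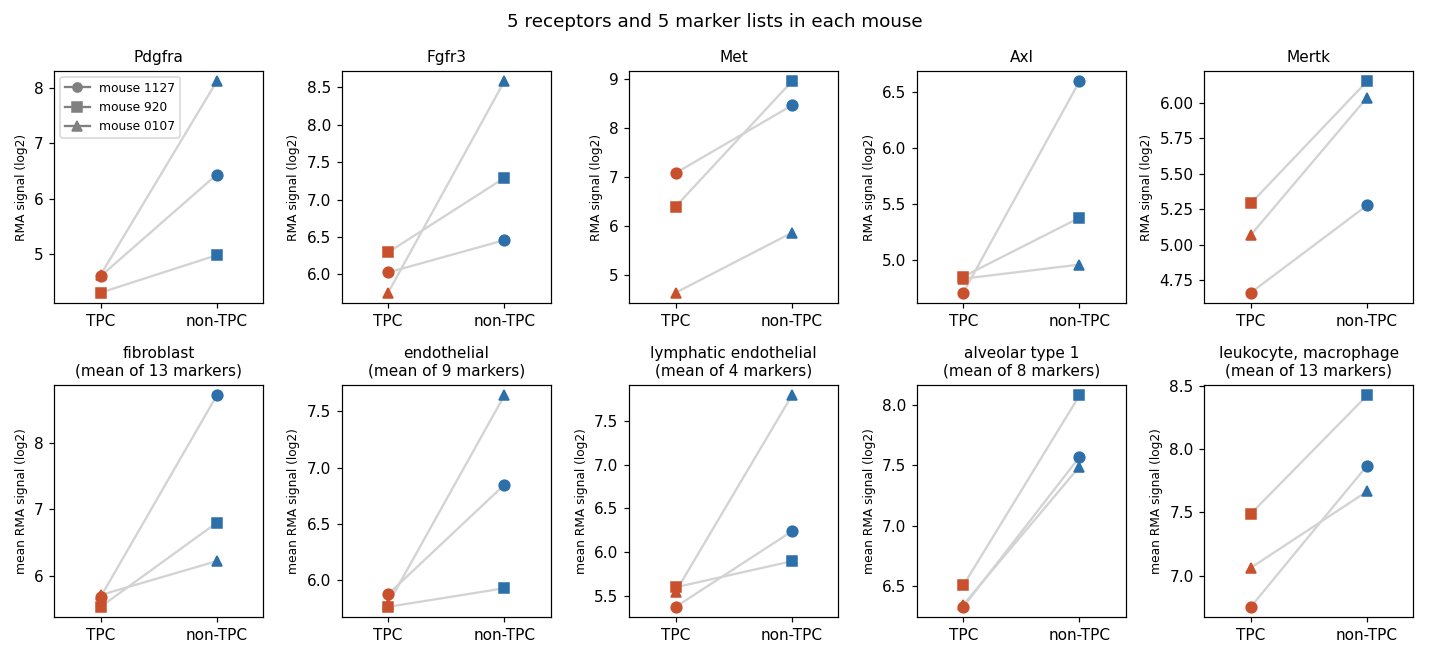
RMA signal (log2, y axis) in the TPC and non-TPC array of each mouse, joined by a line per mouse, for 5 receptors (upper row) and for the mean of 5 marker lists (lower row). The TPC values of Pdgfra (4.31 to 4.63) and of the fibroblast list (5.53 to 5.71) lie close together, and the mouse that is highest among non-TPCs differs between panels.

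Ret, the receptor of GDNF family ligands and a gene of neural crest and neuroendocrine cells, had the largest positive difference of the list. Its signal was 10.01, 9.64 and 9.60 in TPCs, against 9.50, 9.31 and 7.95 in non-TPCs. The fractions did not overlap, and the non-TPC array of mouse 0107 lay well below the other 5. The difference was 0.82 (SE 0.41, limma adjusted p = 0.825), and without that array it was 0.34. A second, dim Ret probe set differed by 0.22. The neuroendocrine marker Chga was likewise lowest in that array, at 9.67, with 11.91, 10.53 and 11.52 in TPCs and 11.22 and 10.57 in the other non-TPCs. Chga is at the upper end of its list of 14 markers, whose differences ran from -0.26 to 0.83 with a median of 0.11. Of the 14, 5 were higher in TPCs of all 3 mice and 9 had mixed signs. Any link to the Ret values was not tested.

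Of the receptors listed in 1 group with Ret, Ltk was above the median of all genes with 7.67, 7.10 and 7.39 in TPCs and 7.81, 7.34 and 6.71 in non-TPCs. Its difference of 0.10 came with opposite signs in the mice. Alk, a receptor kinase of developing neurons, was dim, with 5.28, 5.08 and 5.22 in TPCs and 4.57, 4.86 and 5.08 in non-TPCs. Its fractions did not overlap (difference 0.36, limma adjusted p = 0.810). Ros1 was dim too, at 5.02, 5.05 and 4.96 in TPCs, against 4.56, 4.67 and 4.68 in non-TPCs. It had the smallest p of the list for the comparison of fractions (difference 0.37, SE 0.12, limma unadjusted p = 0.0174, adjusted p = 0.622), with no overlap. Genes restricted to other tissues, most of them dim, had a median difference of 0.12 over 33 genes, beside 0.04 over all genes. Of the 33, 14 were higher in TPCs of all 3 mice, against 19.7% of all genes. Any link to the Alk and Ros1 values was not tested.

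The collagen receptors divided by direction. Ddr1, the epithelial form, had the brightest probe set of the list, at 10.05, 9.81 and 10.01 in TPCs, against 9.42, 9.66 and 9.76 in non-TPCs. The fractions did not overlap, with a narrow gap between the TPCs of mouse 920 and the non-TPCs of mouse 0107 (difference 0.34, SE 0.15, limma adjusted p = 0.783). Its 3 other probe sets above the median differed by 0.17, 0.22 and 0.21. Ddr2, the mesenchymal form, was at 6.82, 6.72 and 6.80 in TPCs, against 7.51, 6.93 and 6.84 in non-TPCs. Its values nearly touched, and only mouse 1127 showed a clear gap (difference -0.31, limma adjusted p = 0.877, and -0.10 with the non-TPCs of that mouse left out). The second Ddr2 probe set read 4.78, 4.43 and 5.28 in TPCs, against 7.99, 5.68 and 5.52 in non-TPCs, a difference of -1.57, with the same order of mice as the fibroblast markers.

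Among the 4 FGF receptors, Fgfr2, which in lung epithelium binds the mesenchymal ligands Fgf7 and Fgf10, was above the median in every array. It was at 8.63, 9.35 and 8.79 in TPCs, against 8.18, 9.14 and 8.44 in non-TPCs. The TPC array was the higher one in each mouse, by 0.45, 0.21 and 0.35, while mouse 920 was the highest in both fractions, so the fractions overlapped. The difference of 0.34 had an SE of 0.30 (limma adjusted p = 0.901) and of 0.13 with the replicate block (adjusted p = 0.510). Fgfr1 and Fgfr4 were below the median in every array and differed by 0.21 and 0.19.

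Of the ERBB receptors, Egfr and Erbb3 were above the median and Erbb2 and Erbb4 were below it in every array. Egfr was at 7.56, 7.18 and 7.84 in TPCs, against 8.50, 7.65 and 7.00 in non-TPCs. It was lower in TPCs of mice 1127 and 920 and higher in TPCs of mouse 0107 (difference -0.19, SE 0.38, limma adjusted p = 0.949). Erbb3, the neuregulin receptor with a weak kinase, was at 7.84, 8.07 and 7.93 in TPCs, against 7.70, 8.43 and 6.95 in non-TPCs. Its TPC values were close to each other and its non-TPC values spanned more than a log2 unit (difference 0.26, limma adjusted p = 0.932). Erbb2, the partner without a known ligand, differed by -0.05, and Erbb4 by 0.11.

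Kit, the stem cell factor receptor, was at 8.13, 7.98 and 7.22 in TPCs, against 8.34, 7.39 and 7.48 in non-TPCs. Its difference was 0.04 (SE 0.34, limma adjusted p = 0.987), and the sign changed between mice. Mast cells also carry Kit. The 8 mast cell markers averaged 4.72, 4.68 and 4.91 in TPCs and 5.05, 4.74 and 4.96 in non-TPCs. The protease gene Cpa3, a defining mast cell marker, was dim at 4.20, 4.35 and 4.28 in TPCs and 4.68, 4.01 and 4.21 in non-TPCs. Differences of the 8 markers ran from -1.35 to 0.21, with a median of -0.001. Of the 8, 1 was lower in TPCs of all 3 mice, 2 were higher in all 3 and 5 had mixed signs. By limma, 1 of the 8 was lower in TPCs at an unadjusted p under 0.05. The part of mast cells in the Kit values was not tested. Flt3, of haematopoietic progenitors and dendritic cells, and Flt4, of lymphatic endothelium, were below the median in every array and differed by -0.09 and 0.12. A second, dim Flt4 probe set went the other way, at 5.36, 5.43 and 5.56 in TPCs, against 5.69, 5.76 and 6.49 in non-TPCs. Its fractions did not overlap (difference -0.53, limma over all probe sets, adjusted p = 0.879). The dendritic markers averaged 5.59, 5.55 and 5.57 in TPCs and 5.41, 5.64 and 5.72 in non-TPCs.

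Ntrk2, the receptor of BDNF and neurotrophin 4, and Insr, the insulin receptor, were bright and lower in TPCs of all 3 mice by small amounts. Ntrk2 was at 7.91, 7.999 and 8.39 in TPCs, against 8.65, 8.34 and 8.72 in non-TPCs. Its fractions met at the TPC value of mouse 0107 (difference -0.47, SE 0.18, limma adjusted p = 0.740). Insr was at 8.09, 8.04 and 8.08 in TPCs, against 8.53, 8.30 and 8.60 in non-TPCs. The TPC values were nearly identical and lay below all non-TPC values (difference -0.41, SE 0.13, limma adjusted p = 0.628). Dim probe sets of both genes differed by amounts between -0.66 and 0.21. Insrr, the insulin receptor-related kinase, differed by -0.22 and Ntrk3, the receptor of neurotrophin 3, by -0.03.

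In the ROR, RYK and MUSK group, Ryk, a Wnt co-receptor with an inactive kinase, was above the median in every array, at 9.36, 9.27 and 8.62 in TPCs, against 9.22, 8.91 and 8.67 in non-TPCs. Its lowest values were those of mouse 0107 in both fractions, and the fractions overlapped (difference 0.15). Ror2, a Wnt5a receptor, was at 7.40, 7.19 and 6.88 in TPCs, against 7.31, 7.17 and 5.59 in non-TPCs. The difference of 0.47 rested on mouse 0107 (limma adjusted p = 0.910) and was -0.08 without its non-TPC array, and a second Ror2 probe set differed by -0.58. Its relative Ror1 was dim, at 5.37, 5.19 and 5.24 in TPCs, against 4.75, 4.87 and 5.08 in non-TPCs, with no overlap (difference 0.36, limma adjusted p = 0.740). Musk, the agrin-dependent receptor of the neuromuscular junction, differed by -0.11, Ptk7, a pseudokinase of planar cell polarity, by 0.09 and Styk1, an atypical kinase, by -0.12.

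Fractions did not overlap for 10 receptors in all. TPCs lay below non-TPCs for Fgfr3, Pdgfra, Axl, Insr and Ddr2 (14.7%, against 5.91% of all genes) and above them for Ret, Alk, Ros1, Ddr1 and Ror1 (14.7%, against 6.71%).

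No receptor passed the test for a difference among the 3 mice. In the fit of fraction and mouse, 0 of 34 receptors had a limma F adjusted p under 0.05 for the mouse, against 0.0440% of all genes. At an unadjusted p under 0.05 there were 7 (20.6%, against 13.2% of all genes), Met, Fgfr2, Mertk, Ryk, Kit, Ror2 and Insrr. The range over the 6 arrays was 1 or more for 13 receptors (38.2%, against 24.8% of all genes) and 2 or more for 4 receptors, Met, Pdgfra, Fgfr3 and Ret (11.8%, against 5.33% of all genes).

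The non-TPC array of mouse 0107 had the lowest value of all 6 for 7 receptors (20.6%, against 20.9% of all genes), Egfr, Erbb3, Ret, Ltk, Insrr, Ror2 and Styk1. The share is that of all genes. These 7 were among the 14 receptors above the median, and this array was the lowest for 30.7% of all genes above the median. It had the highest value for 10 receptors (29.4%, against 28.2% of all genes), among them Fgfr3, Pdgfra, Ntrk2 and Insr, again close to the share of all genes. In the same array the endothelial and lymphatic endothelial marker means were the highest of all 6, and the neuroendocrine mean was the lowest, at 10.03.

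**Figure D4:**
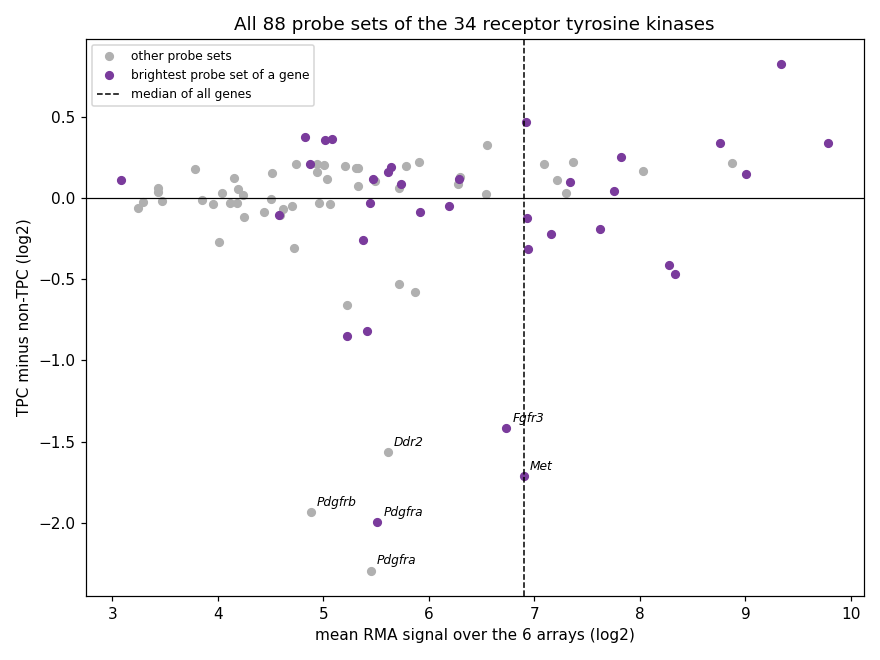
TPC minus non-TPC difference (log2, y axis) against the mean signal over the 6 arrays (log2, x axis) for all 88 probe sets of the 34 receptors, with the brightest probe set of each gene in purple and the others in grey. The named points have a difference of -1 or below, and Pdgfra is the one gene with 2 of them, at -1.998 and -2.29.

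Of the 22 receptors with several probe sets, 11 had a second-brightest probe set with the sign of the brightest. Among the 6 further probe sets above the median of all genes, 4 had the same sign. With each probe set as a feature of its own, 0 of the 88 had a limma adjusted p under 0.05 over 34945 probe sets (0.0401% of all probe sets). At an unadjusted p under 0.05 there were 8 (9.09%, against 5.79% of all probe sets).

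Ligands and co-receptors of these receptors were measured for 62 of 69 listed genes. None passed the limma test, and at an unadjusted p under 0.05 10 were lower in TPCs (16.1%, against 4.35% of all genes) and 0 were higher (against 2.12%). Counted in either direction, the 10 became 4 without the TPC array of mouse 920. The count was 6 without that mouse or without the TPC array of mouse 0107, and up to 15 without another array. Here too the share of all genes without a mouse or array is not given. The median difference was 0.07, beside 0.04 over all genes. Of these 10, 5 came from the 8 measured ligands and co-receptors of the KIT, PDGF and VEGF receptors, where the median difference was -0.60.

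Pdgfc, a ligand of Pdgfra, was at 4.35, 3.69 and 3.42 in TPCs, against 5.03, 4.21 and 5.47 in non-TPCs. It was lower in TPCs of each mouse, with mouse 0107 furthest apart as on the brightest Pdgfra probe set (mouse 1127 on the second one), and the fractions overlapped (difference -1.08, SE 0.38, limma adjusted p = 0.660). Pdgfa, the ligand with a signal above the median, differed by -0.03, Pdgfb by -0.30 and Pdgfd by -0.76. Vegfd, a ligand of Flt4, was at 5.10, 5.19 and 4.89 in TPCs, against 6.16, 5.69 and 5.97 in non-TPCs, with no overlap (difference -0.88, SE 0.17, limma adjusted p = 0.275). Nrp2, the co-receptor of Flt4 for VEGFC, differed by -0.45.

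Kitl, the stem cell factor that binds Kit, was named after its values were seen. Its signal was 9.49, 9.40 and 8.88 in TPCs, against 9.66, 10.10 and 11.43 in non-TPCs. The fractions did not overlap, and the non-TPCs of mouse 0107 stood highest (difference -1.14, SE 0.45, limma adjusted p = 0.745). Hgf, the ligand of Met, was above the median at 7.81, 8.54 and 8.39 in TPCs and 8.68, 8.35 and 7.07 in non-TPCs. Unlike Met, it had opposite signs in mice 1127 and 0107 (difference 0.21, SE 0.43).

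Both TAM ligands were lower in TPCs of all 3 mice. Pros1, which encodes protein S, was at 6.52, 6.55 and 5.90 in TPCs, against 7.68, 7.33 and 6.80 in non-TPCs, with no overlap (difference -0.94, SE 0.28, limma adjusted p = 0.574). Gas6 was at 5.88, 5.88 and 6.65 in TPCs and 7.19, 6.51 and 6.67 in non-TPCs (difference -0.65, SE 0.28, limma adjusted p = 0.773).

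For the ERBB receptors, Ereg, a ligand of Egfr, was at 4.01, 4.44 and 3.87 in TPCs, against 6.03, 7.19 and 4.28 in non-TPCs. The fractions overlapped at the low non-TPC value of mouse 0107 (difference -1.73, SE 0.68, limma adjusted p = 0.740). Hbegf was at 9.50, 10.08 and 9.34 in TPCs and 8.85, 9.76 and 8.43 in non-TPCs, a difference of 0.62, and Tgfa differed by 0.71, with both higher in TPCs of all 3 mice. Neither passed (limma adjusted p = 0.873 for each). Nrg4, which binds Erbb4, was dim and differed by 0.29.

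Nrtn, a GDNF family ligand that signals through Ret, was at 9.27, 9.09 and 8.75 in TPCs, against 8.86, 8.94 and 7.45 in non-TPCs. It was higher in TPCs of each mouse, and its lowest array was the one in which Ret was lowest (difference 0.62, SE 0.41, limma adjusted p = 0.878). Gdnf itself was dim, at 3.76 to 3.98 in TPCs and 3.97 to 4.15 in non-TPCs. The list that holds it covers ligands of Ret and of Alk together. The others named by p in that list were Pspn (0.30) and Mdk (-0.57). Of 19 measured Fgf genes and 2 co-receptors, Klb and Kl, 0 passed or had an unadjusted p under 0.05. The largest difference there was 1.004 for Fgf13, an intracellular FGF homologue that does not act through FGF receptors, at 10.57, 10.37 and 9.91 in TPCs, against 10.13, 9.59 and 8.12 in non-TPCs. Fgf9, a ligand of Fgfr3, differed by -0.01 and Fgf1 by -0.52. Ntf5, which encodes neurotrophin 4, differed by -0.55, Bdnf by -0.29, Wnt5a by -0.71 and Agrn, the agrin gene, by -0.95 (limma adjusted p = 0.384), each a value that did not pass.

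**Figure D5:**
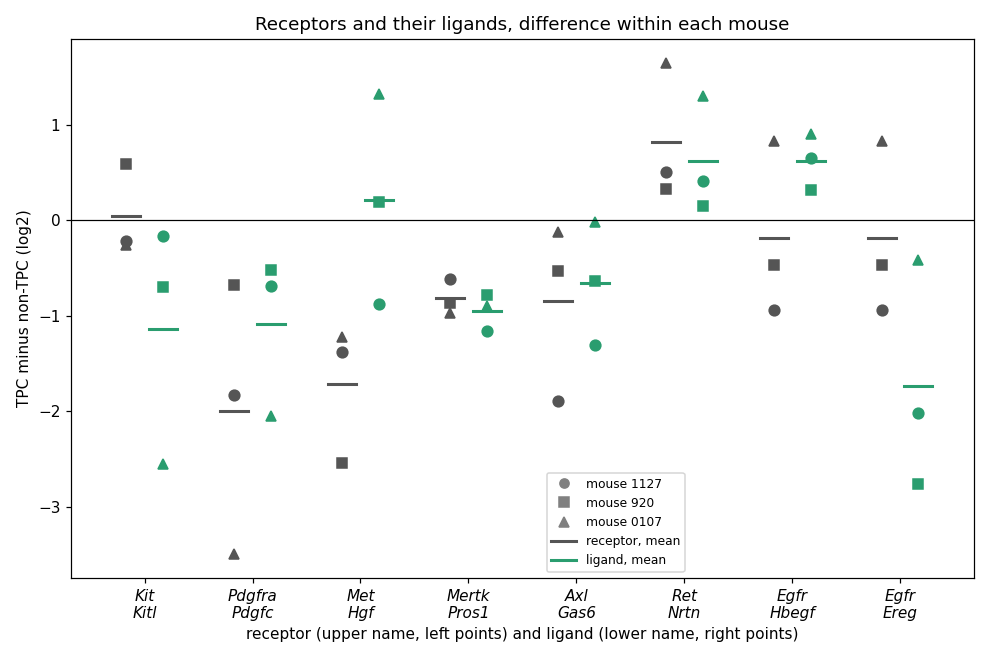
TPC minus non-TPC difference (log2, y axis) in each mouse for 7 receptors (left points, dark grey, Egfr shown with 2 ligands) and a ligand of each (right points, green), with horizontal bars at the means. Pdgfra and Pdgfc, Mertk and Pros1, and Axl and Gas6 lie below zero in all 3 mice, Ret and Nrtn above it, and Met (-1.71) and Hgf (0.21) apart from each other.

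Signalling genes downstream were measured for 53 of 55 listed adaptors and feedback regulators. None passed the limma test. At an unadjusted p under 0.05, 2 were lower in TPCs (3.77%, against 4.35% of all genes) and 0 were higher (against 2.12%), so neither share exceeded that of all genes. The median difference was 0.03, beside 0.04 over all genes. The 2 were Etv5, an ETS factor induced by FGF and RAS-MAPK signalling, and Plcg1, a phospholipase that docks on activated receptors. Etv5 was dim, with nearly the same gap in each mouse, at 4.67, 4.51 and 4.19 in TPCs, against 5.29, 5.16 and 4.84 in non-TPCs (difference -0.64, SE 0.19, limma adjusted p = 0.574). Plcg1 was at 7.70, 7.51 and 7.76 in TPCs, against 8.11, 8.24 and 9.37 in non-TPCs (difference -0.91, SE 0.33, limma adjusted p = 0.700).

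Grb10, an adaptor that inhibits insulin receptor signalling, varied widely between arrays. It was at 7.94, 6.02 and 6.30 in TPCs, against 8.66, 7.04 and 9.98 in non-TPCs, lower in TPCs of each mouse with overlap between fractions (difference -1.81, SE 0.81, limma adjusted p = 0.799). Spred1, an inhibitor of RAS-MAPK signalling, differed by -0.74, Sh2b3 by -0.40, Lrig2 by 0.28, Shc2 by 0.43 and Sos2 by 0.37, and none of them passed.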

How the data were processed

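The data are 6 arrays of 1 colour from Affymetrix, 3 of TPC and 3 of non-TPC RNA. The labels' protocols describe sorting into Trizol and a whole-transcript target kit. Signals per probe set were deposited on what was read as a log2 scale, made by the authors with RMA (per the submitters' processing notes). This scale follows from values of 2.70 to 14.81 and array medians of 6.00 to 6.04, as no source used here states the log base, the RMA version or the probe set definition. The probe annotation belongs to a 3′ expression array and names no build, so no probe set coordinates are given.

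Of 45101 probe sets, 34945 had 1 gene symbol, 932 had several and 9160 had no listed gene; symbols were updated to RefSeq of GRCm38.p6 for 18032 of 18193 genes. The main model, fitted by lmFit and eBayes of limma 3.58.1 under R 4.3.3, held the fraction alone, with two-sided p-values adjusted by Benjamini-Hochberg over all genes and a threshold of 0.05. No dim probe set was removed. The fraction and mouse come from the titles. Deviations of the 2 arrays of a mouse correlated at 0.302, 0.462 and 0.357 across genes, against at most -0.082 for different mice, so a replicate block for the mouse was fitted too (2 residual degrees of freedom, against 4 without it). Alternatives were the mouse as a random block (consensus correlation 0.271), an intensity trend, a filter on dim genes, other probe set summaries, rescaled arrays and leaving out each mouse or array. The procedure was tested on simulated data. Arrays carry no read depth.

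The members and lists were chosen with earlier results of these data known. All receptors are named. Of each other list, up to 4 genes with the smallest p are named, plus its first gene for marker lists, and ligands of receptors with a difference of 1 or more in size. Kitl falls outside that rule. RefSeq promoters were searched for the motifs on both strands.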

Additional observations from a re-analysis of the deposited data

How the results depend on the processing

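In all settings tried 0 receptors, 0 ligands or co-receptors and 0 adaptors or feedback regulators had an adjusted p under 0.05. Receptors with an unadjusted p under 0.05 numbered 7 with the fraction as the only term (20.6%, against 6.48% of all genes). With the mouse as a replicate block they numbered 8 (23.5%, against 9.85%). The number was 10 with the mouse as a random block, 5 with an intensity trend, 3 with the mean of all probe sets and 0 of 14 among genes above the median. Without 1 mouse or array that count was 1 to 10 for receptors, 4 to 15 for ligands and co-receptors (10 with all arrays) and 1 to 5 for adaptors and feedback regulators (2 with all arrays). Beyond the fit of the fraction alone and the replicate block, the share of all genes under a setting is not given here. Whether these counts moved more than those of all genes was not tested. The pairing by mouse, given as the replicate block, moved no receptor past the threshold. The count of receptors above a level was 14 against the median of all genes and 9 against the 95th percentile of the tissue-restricted genes, and 12 to 15 without 1 mouse. Of 524 receptor differences under 16 settings, 494 kept their sign and 30 did not, and 22 receptors never changed sign. The replicate block, the random block, the intensity trend and the filter on dim genes leave each difference as it was in this balanced design. Values under those settings could only keep their sign, so 494 overstates how often the sign was put to a test. With the mean of all probe sets the sign turned for Egfr (0.005), Flt4 (-0.205), Ntrk3 (0.038) and Ror2 (-0.055). Without 1 mouse or array the difference ran from -0.70 to 0.20 for Egfr, -0.13 to 0.018 for Erbb2, -0.12 to 0.62 for Erbb3, -0.23 to 0.34 for Kit, -0.236 to 0.058 for Flt3, -0.007 to 0.267 for Flt4, -0.013 to 0.205 for Mst1r, -0.19 to 0.36 for Ltk, -0.19 to 0.12 for Ntrk3, -0.194 to 0.032 for Musk, -0.082 to 0.777 for Ror2 and -0.39 to 0.13 for Styk1; the cause was not tested. Without 1 mouse or array it ran from -2.76 to -1.20 for Pdgfra, -2.65 to -1.01 for Met, -1.91 to -0.71 for Fgfr3, 0.34 to 1.11 for Ret, -1.21 to -0.33 for Axl and -0.45 to -0.10 for Ddr2. Centring the arrays moved the median difference of all genes by 0.0191 and a repeated quantile normalization by 0.01. With 3 animals a fraction, differences that vary between mice are estimated loosely, and dim probe sets, which are 20 of the 34 brightest ones, set only a weak bound on the transcript. The median difference over the 20 receptor probe sets above the median, chosen after seeing the data, was 0.13, and over the 34 receptors 0.06, with -0.017 to 0.061 without 1 mouse or array.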
